A study of Mus musculus with 8 samples.

Results

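The genes that make and sense prostaglandins and leukotrienes were examined in bulk RNA sequencing of mouse neutrophils from tumors of B16, a mouse melanoma line. The 9 genes were chosen by name, and all 9 were among the 18187 gene symbols of the deposited count table: Ptgs1, Ptgs2, Ptges, Alox5, Alox5ap, Lta4h, Ltb4r1, Ptger2 and Ptger4. There were 3 libraries labelled as from aOX40 treated B16 tumors (replicates 1 to 3) and 5 as from IgG treated B16 tumors (replicates 2 to 6). OX40 is a costimulatory receptor of T cells, and the title of the series concerns neutrophil activation by T cell immunotherapy. The labels name neutrophils as the cells of both groups, and give no dose, time, mouse strain, age or method of cell isolation. They do not say that the libraries come from separate mice, so p-values reflect only how these libraries vary, which may be partly technical.

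Prostaglandins and leukotrienes are short-lived lipid messengers made from arachidonic acid, which phospholipases free from membranes. Cyclooxygenases turn arachidonic acid into a prostaglandin precursor, and terminal synthases turn that into prostaglandin E and its relatives. In the other branch 5-lipoxygenase, with its membrane partner FLAP, makes an unstable leukotriene that a hydrolase converts to leukotriene B, a strong attractant of neutrophils. Prostaglandin E acts on neutrophils mainly through receptors that raise cyclic AMP and is known to restrain many of their functions.

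Depth went with the group: the libraries held 69.6 to 73.5 M counts (M, mega) in aOX40 and 52.7 to 63.2 M counts in IgG (exact two-sided permutation p = 0.0357, the lowest value this design allows). The share of counts from mitochondrial messenger RNAs was 0.126 ± 0.0262% in aOX40 (SD, n = 3) and 0.0642 ± 0.0115% in IgG (SD, n = 5), also without overlap (exact two-sided permutation p = 0.0357). The number of genes with at least 10 counts was 12715 to 13339 in aOX40 and 11382 to 12621 in IgG (exact two-sided permutation p = 0.0357). The part of depth, mitochondrial share and gene number in the results on the 9 genes was not tested. The 13 neutrophil markers summed to 27854 to 33162 CPM in aOX40 and 22914 to 31742 CPM in IgG. CPM are counts relative to library size after TMM scaling between libraries. Of these 13 markers 2 rose in the test described below and 0 fell, where 2.64% of all genes tested rose. The 2 were Mmp8 (log2 fold change 1.19, adjusted p = 0.0443, edgeR) and Mmp9 (1.28, adjusted p = 0.0467, edgeR). In such bulk samples fewer cells of a type and less RNA per cell cannot be told apart.

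Among the 9 genes, Ptges and Ptgs1 rose after aOX40, while Ptgs2, the leukotriene enzymes and the receptors did not pass the test. All 9 passed the filter on low counts. With edgeR's quasi-likelihood test and a threshold of 0.05 on the adjusted p, 2 of the 9 were higher and 0 were lower, where 2.64% of all 13278 genes tested were higher and 3.00% were lower. These 2 calls depend on the variant of that test. The values given here come from its bias-adjusted method, whereas the legacy method, which is the default of the edgeR version used, called 0 of the 9, with an adjusted p of 0.0596 for Ptges and 0.266 for Ptgs1. The legacy method was run first, and the bias-adjusted one was adopted after its results were seen, to match an earlier analysis of these data. The groups did not overlap in 3 of the 9, Ptges, Ptgs1 and Ptger2, each higher in aOX40, where 8.22% of all genes tested had no overlap in that direction and 7.75% in the other. The median log2 fold change was 0.52 over the 9 genes and 0.05 over all genes tested. Of the 9 fold changes 6 lay above 0, and 9 did when libraries were scaled by total counts alone, which moved the median of all genes to 0.35.

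**Figure D1:**
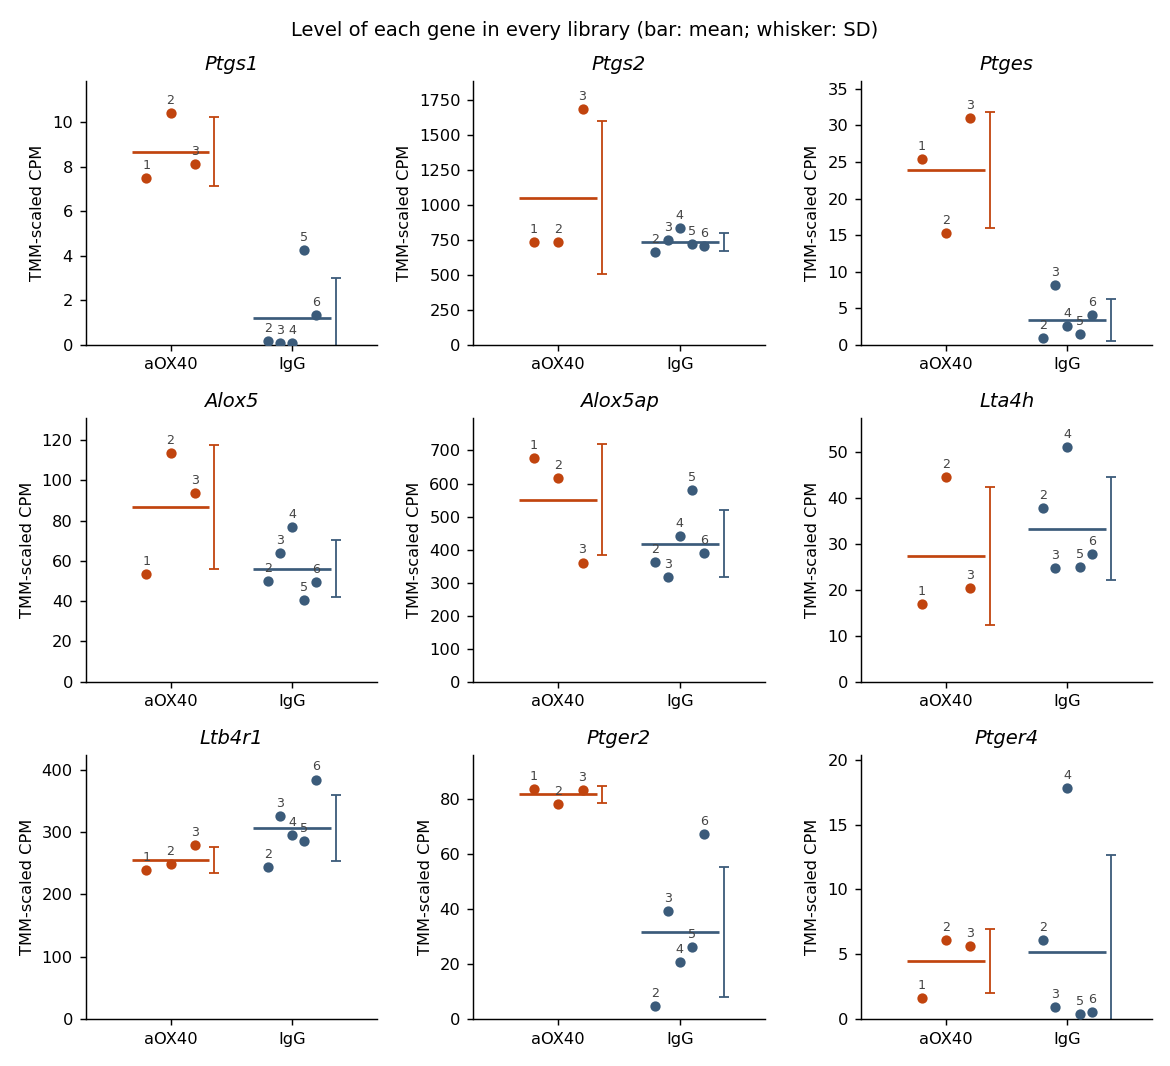
Scaled CPM of each of the 9 genes in every library, with aOX40 (3 libraries) left of IgG (5 libraries). Points are libraries, bars are means and whiskers are the SD, cut at 0 by the axes. Ptges, Ptgs1 and Ptger2 have no overlap between the groups, and aOX40 replicate 3 stands above every other library in Ptgs2.

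The promoters of the 3 enzymes of prostaglandin E synthesis among the 9 genes are shown because Ptges and Ptgs1 differed between the groups without overlap while Ptgs2, high in both, overlapped. The windows are from RefSeq (GRCm38.p6) and run 5′ to 3′ along the gene's strand, with 250 bases before the start site and 50 from it onwards. Capitals mark matches to the motifs searched. The windows lie at chr2:30903248-30903547 on the minus strand for Ptges, chr2:36230176-36230475 on the plus strand for Ptgs1 and chr1:150099781-150100080 on the plus strand for Ptgs2. The RefSeq start of Ptges used here lies inside the longer span that GENCODE gives the gene.
Ptges: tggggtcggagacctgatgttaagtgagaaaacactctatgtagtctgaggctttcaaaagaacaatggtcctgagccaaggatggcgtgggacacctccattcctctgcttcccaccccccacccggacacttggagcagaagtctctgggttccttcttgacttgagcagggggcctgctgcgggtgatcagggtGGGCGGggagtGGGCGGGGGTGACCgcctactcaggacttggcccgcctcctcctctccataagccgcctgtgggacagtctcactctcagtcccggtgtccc
Ptgs1: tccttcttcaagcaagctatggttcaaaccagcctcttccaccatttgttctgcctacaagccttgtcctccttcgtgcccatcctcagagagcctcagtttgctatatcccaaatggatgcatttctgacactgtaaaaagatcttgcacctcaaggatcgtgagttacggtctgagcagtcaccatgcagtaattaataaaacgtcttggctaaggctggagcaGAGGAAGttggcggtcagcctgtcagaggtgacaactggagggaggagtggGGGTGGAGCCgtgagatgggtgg
Ptgs2: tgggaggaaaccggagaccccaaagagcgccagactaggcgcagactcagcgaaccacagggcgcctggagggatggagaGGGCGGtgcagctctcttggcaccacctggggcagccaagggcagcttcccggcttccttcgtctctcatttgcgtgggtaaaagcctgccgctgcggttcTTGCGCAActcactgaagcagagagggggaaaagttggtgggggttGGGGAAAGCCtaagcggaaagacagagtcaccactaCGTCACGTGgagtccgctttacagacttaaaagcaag
There were 12 motifs, searched on both strands. The Ptges window held GC boxes (GGGCGG) 53 and 42 bases before the start site, and the second overlapped a loose NF-kB match (GGG and CC with any 5 bases between) 38 bases before it. The Ptgs1 window held a PU.1 match (GAGGAAG), PU.1 being a transcription factor of myeloid cells, 24 bases before the start and an NF-kB match at base 28 from it. The Ptgs2 window held a GC box 170 bases before the start, a C/EBP match (TTGCNNAA) 69 bases before and an NF-kB match 23 bases before. It also held a cyclic AMP response element core (TGACG, on the reverse strand) at base 14 that overlapped an E-box (CACGTG) at base 17. Of all 32851 mouse promoter windows, 50.8% held the NF-kB letters, 35.7% the GC box, 13.6% the PU.1 letters, 10.8% the C/EBP letters, 20.8% that core and 7.15% the E-box. Among the 8 of the 9 genes with a window, 6 held the NF-kB letters and 5 the GC box. No match was found in these 8 for the full cyclic AMP response element (TGACGTCA), the EGR1 site (GCGGGGGCG), the interferon-gamma activated site (TTCNNNGAA), the interferon-stimulated response element (GAAA repeated after any 2 bases) or the TATA box (TATAAA). Of all windows 1.79%, 2.91%, 8.30%, 3.44% and 13.6% held these letters, in the order given. The core of the antioxidant response element (TGACNNNGC) was found in Ltb4r1 alone among the 8, and in 12.4% of all windows. These matches describe letters in the windows and do not show binding.

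Ptges (ENSMUSG00000050737.13, chromosome 2, 30889471 to 30929863, minus strand, GRCm38) encodes microsomal prostaglandin E synthase, the inducible terminal enzyme that often works downstream of Ptgs2. It stood at 25.4, 15.3 and 31.0 CPM in aOX40 replicates 1 to 3, against 0.923, 8.12, 2.53, 1.47 and 4.00 CPM in IgG replicates 2 to 6. The lowest aOX40 library was above the highest IgG library, which was replicate 3. Ptges rose by 2.81 on the log2 scale (SE 0.48, adjusted p = 0.0150, edgeR), a 7.04-fold difference. The call held in 14 of 18 alternative analyses, whose log2 fold changes ran from 2.59 to 3.40. Besides the legacy method, it was lost without aOX40 replicate 2 (adjusted p = 0.0558, edgeR) and without aOX40 replicate 3 (adjusted p = 0.0663, edgeR), as in 1 more analysis given with the processing alternatives. Fibroblasts can also make this enzyme, and the 4 of 8 fibroblast and pericyte markers measured summed to 1.22 to 4.04 CPM in aOX40 and 3.45 to 32.4 CPM in IgG (exact permutation p = 0.0714, or 0.196 adjusted over 11 marker lists). Most of the IgG sum was the collagen gene Col1a1, which fell (log2 fold change -3.09, SE 0.75, adjusted p = 0.0414, edgeR), and the other 3 summed to 0 to 2.31 CPM in aOX40 and 0 to 3.29 CPM in IgG. The part of fibroblasts in the Ptges result was not tested.

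Ptgs1 (ENSMUSG00000047250.13, chromosome 2, 36230426 to 36252272, plus strand) encodes the cyclooxygenase that many tissues make constantly and that platelets use for thromboxane. It stood at 7.49, 10.4 and 8.15 CPM in aOX40 replicates 1 to 3, against 0.144, 0.0579, 0.0930, 4.26 and 1.35 CPM in IgG replicates 2 to 6. Each aOX40 library was above every IgG library, and within IgG replicates 5 and 6 stood far above the other libraries. In counts these were 557, 930 and 653 in aOX40, against 7, 3, 5, 261 and 76 in IgG. The filter on low counts asks for enough counts in as many libraries as the smaller group holds, 3. The aOX40 libraries alone met this and the IgG libraries alone did not. Ptgs1 was thus tested because of the group in which it is high. Ptgs1 rose by 2.77 on the log2 scale (SE 0.67, adjusted p = 0.0394, edgeR), a 6.83-fold difference. The alternative analysis that asked for at least 10 counts in every library did not test Ptgs1. In the other 17 the call was lost in 10, among them DESeq2 (adjusted p = 0.0922) and 7 of the 8 that leave out a library. The adjusted p over these 17 ran from 0.0191 to 0.266. Without aOX40 replicates 1, 2 or 3 it was 0.0632, 0.158 and 0.0954 (edgeR), and without IgG replicates 2, 3, 4 or 6 it was 0.0649, 0.0665, 0.0628 and 0.0672 (edgeR). Without IgG replicate 5 the log2 fold change was 4.33 (adjusted p = 0.0191, edgeR).

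Markers of platelets and of macrophages, cells that can carry Ptgs1 or Ptges, were measured in the same libraries. The 7 platelet markers summed to 0.572 to 2.33 CPM in aOX40 and 3.59 to 6.22 CPM in IgG (p = 0.0357 by the exact permutation test, or 0.196 adjusted over 11 marker lists). These levels are low, with 4 of the 7 markers under 1 CPM in every library. Without Ppbp, the most abundant, the groups overlapped: the other 6 summed to 0.168 to 1.37 CPM in aOX40 and 1.11 to 2.90 CPM in IgG. Itga2b and Gp9 had 0 counts in every aOX40 library, and Gp6 had 0 counts in every IgG library. The part of platelets in the Ptgs1 result was not tested. The 11 of 12 macrophage and monocyte markers measured summed to 1084 to 1527 CPM in aOX40 and 1403 to 2037 CPM in IgG (exact permutation p = 0.0714, adjusted 0.196). That order came from Cd68, the most abundant marker: the other 10 summed to 549 to 790 CPM in aOX40 and 376 to 726 CPM in IgG. Of the 10 markers tested, 8 had log2 fold changes above 0, with a median of 0.50, and 1 rose and 1 fell. The marker that rose was Adgre1, the gene of the macrophage antigen F4/80, at 21.6 ± 6.37 in aOX40 and 6.12 ± 2.62 in IgG (mean ± SD in CPM; log2 fold change 1.81, SE 0.37, adjusted p = 0.0248, edgeR). The marker that fell was Cd68, a lysosomal glycoprotein gene, at 639 ± 208 in aOX40 and 1272 ± 168 in IgG (mean ± SD in CPM; log2 fold change -0.99, SE 0.23, adjusted p = 0.0362, edgeR). Csf1r, the receptor gene of macrophage colony-stimulating factor, stood at 39.9, 38.0 and 75.6 CPM in aOX40, against 4.51, 16.3, 25.1, 24.2 and 17.5 CPM in IgG, without overlap and without passing (log2 fold change 1.54, SE 0.42, adjusted p = 0.0546, edgeR). Ly6c2, the most abundant marker after Cd68, stood at 547 ± 145 in aOX40 and 425 ± 159 in IgG (mean ± SD in CPM; log2 fold change 0.37, adjusted p = 0.484, edgeR). Apoe stood at 36.3 ± 12.2 in aOX40 and 35.8 ± 5.65 in IgG (mean ± SD in CPM). The complement genes C1qa, C1qb and C1qc, also in this list, were at most 1.69 CPM in aOX40 and 1.89 CPM in IgG. The part of macrophages and monocytes in the Ptges and Ptgs1 results was not tested.

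Ptgs2 (ENSMUSG00000032487.8, chromosome 1, 150100031 to 150108227, plus strand) encodes the inducible cyclooxygenase that inflammatory signals switch on. It stood at 736, 735 and 1689 CPM in aOX40 replicates 1 to 3, against 662, 750, 834, 722 and 709 CPM in IgG replicates 2 to 6. The IgG libraries lay close together, with a coefficient of variation of 8.61%, and aOX40 replicates 1 and 2 lay among them. The log2 fold change was 0.52 (SE 0.27, adjusted p = 0.269, edgeR), and without aOX40 replicate 3 it was 0.0064 (adjusted p = 0.990, edgeR). Ptgs2 was thus expressed at a high level in every library of either group, and its mean difference rested on 1 library.

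**Figure D2:**
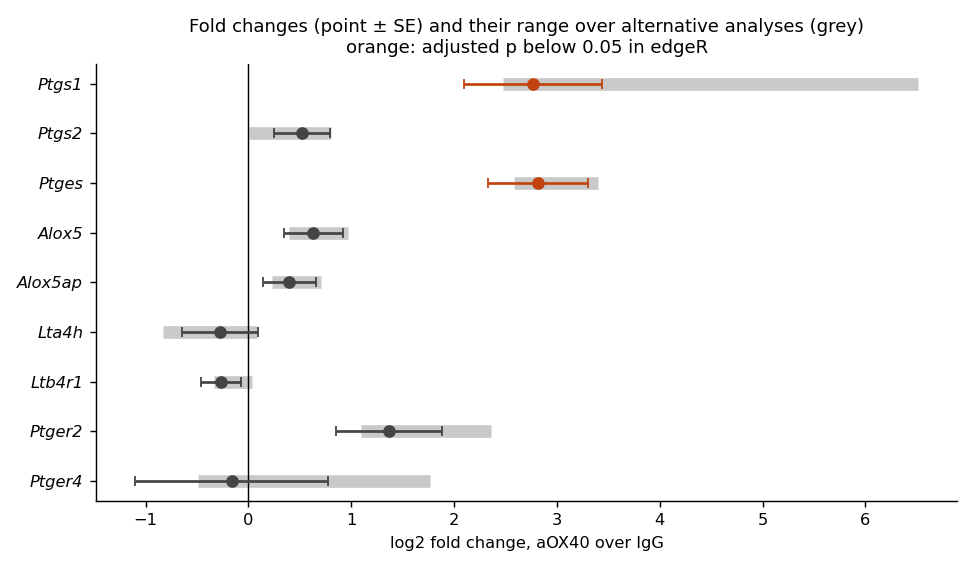
Log2 fold change of aOX40 over IgG for the 9 genes, as points with their SE, and as grey bands the range over the alternative analyses. Ptges and Ptgs1 are the 2 genes past the threshold, and the bands of Lta4h, Ltb4r1 and Ptger4 cross 0.

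In the leukotriene branch 0 of 3 enzymes passed the test. Alox5 (ENSMUSG00000025701.12, chromosome 6, 116410077 to 116461178, minus strand) encodes 5-lipoxygenase. It stood at 53.3, 113 and 93.6 CPM in aOX40 replicates 1 to 3, against 50.1, 63.7, 77.0, 40.7 and 49.3 CPM in IgG replicates 2 to 6. Replicates 2 and 3 of aOX40 were above every IgG library, but replicate 1 lay among them, and the log2 fold change was 0.63 (SE 0.28, adjusted p = 0.200, edgeR). Alox5ap (ENSMUSG00000060063.9, chromosome 5, 149264767 to 149288153, plus strand) encodes FLAP, which presents arachidonic acid to 5-lipoxygenase. It stood at 677, 615 and 361 CPM in aOX40, against 362, 317, 440, 581 and 389 CPM in IgG. Here aOX40 replicate 3 lay among the lowest libraries, so the order of the aOX40 libraries was not that of Alox5 (log2 fold change 0.40, SE 0.26, adjusted p = 0.367, edgeR). Lta4h (ENSMUSG00000015889.8, chromosome 10, 93453411 to 93484875, plus strand) encodes the hydrolase that forms leukotriene B. It stood at 16.8, 44.5 and 20.5 CPM in aOX40, against 37.8, 24.8, 51.1, 25.0 and 27.7 CPM in IgG. Replicates 1 and 3 of aOX40 were below every IgG library and replicate 2 was near the top, and the log2 fold change was -0.28 (SE 0.37, adjusted p = 0.686, edgeR), or 0.08 with total counts alone.

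None of the 3 receptors passed, although Ptger2 did not overlap between the groups. Ptger2 (ENSMUSG00000037759.6, chromosome 14, 44988195 to 45003820, plus strand) encodes the prostaglandin receptor EP2, which raises cyclic AMP. It stood at 83.8, 78.3 and 83.4 CPM in aOX40 replicates 1 to 3, against 4.70, 39.3, 20.6, 26.3 and 67.4 CPM in IgG replicates 2 to 6. The coefficient of variation was 3.74% in aOX40 and 74.3% in IgG, where replicate 6 lay closest to aOX40. The log2 fold change was 1.36 (SE 0.52, adjusted p = 0.136, edgeR), and in 18 alternative analyses it ran from 1.09 to 2.36 without passing (adjusted p 0.0551 to 0.306). An antisense gene, Gm17173, covers all of Ptger2, no source used here says whether counting used strand, and Ptger2 counts carried fractions in all 8 libraries, so its reads may be shared.

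Ptger4 (ENSMUSG00000039942.15, chromosome 15, 5206661 to 5244187, minus strand) encodes the prostaglandin receptor EP4, which also raises cyclic AMP. It stood at 1.60, 6.09 and 5.64 CPM in aOX40, against 6.11, 0.926, 17.8, 0.343 and 0.549 CPM in IgG. The IgG libraries spread on either side of aOX40, and the log2 fold change was -0.16 (SE 0.94, adjusted p = 0.937, edgeR). It was 1.28 without IgG replicate 4 (adjusted p = 0.376, edgeR), and 0.22 without aOX40 replicate 1 (adjusted p = 0.919, edgeR), so its direction rested on single libraries. It overlaps Ttc33 on the other strand by 11676 bases. Ltb4r1 (ENSMUSG00000046908.5, chromosome 14, 55765962 to 55768494, plus strand) encodes the high-affinity leukotriene B receptor of neutrophils. It stood at 239, 249 and 279 CPM in aOX40, against 243, 326, 295, 286 and 385 CPM in IgG, with overlapping groups (log2 fold change -0.26, SE 0.19, adjusted p = 0.434, edgeR; 0.04 with total counts alone).

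Per length, the genes fell into a high and a low set in either group. As mean CPM per kb of exonic length, Alox5ap stood at 388 in aOX40 and 294 in IgG, Ptgs2 at 230 in aOX40 and 161 in IgG, and Ltb4r1 at 183 in aOX40 and 220 in IgG. Alox5 followed at 21.1 in aOX40 and 13.7 in IgG, and did not overlap with any of these 3 in either group. Ptger2 stood at 15.8 in aOX40 and 6.10 in IgG, and Lta4h at 4.47 in aOX40 and 5.46 in IgG. Ptges was above Lta4h in mean in aOX40, at 6.08, and below it in IgG, at 0.867. Ptgs1 stood at 2.24 in aOX40 and 0.304 in IgG, and Ptger4 at 0.668 in aOX40 and 0.775 in IgG. In aOX40 the neighbours Alox5ap and Ptgs2, Ptgs2 and Ltb4r1, Alox5 and Ptger2, and Ptges and Lta4h overlapped in their libraries. In IgG the only neighbours that did not overlap were Ptgs2 and Alox5, and Lta4h and Ptges.

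**Figure D3:**
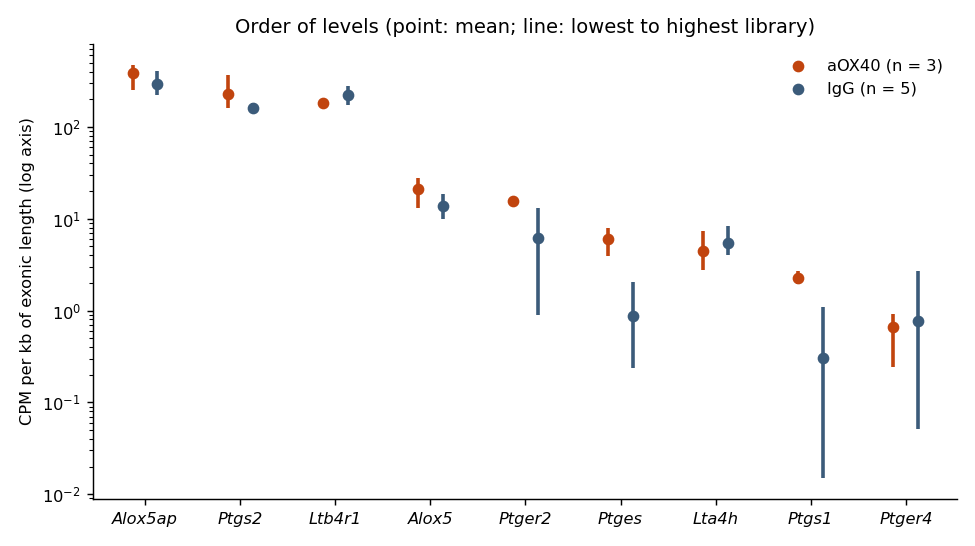
CPM per kb of exonic length on a log axis, for aOX40 (n = 3, left of each pair) and IgG (n = 5). Points are means and lines run from the lowest to the highest library; Alox5ap, Ptgs2 and Ltb4r1 stand above the other 6 genes in both groups.

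Of the rest of the pathway, 94 genes in 7 lists, 76 were in the table and 63 were tested; 1 rose and 2 fell, against 5.65% of all genes tested that passed in either direction. Their median log2 fold change was 0.07. Acsl5, a ligase that activates long-chain fatty acids, stood at 29.9, 57.5 and 51.8 CPM in aOX40, against 13.2, 16.2, 10.2, 13.2 and 16.7 CPM in IgG. It rose by 1.74 on the log2 scale without overlap (SE 0.27, adjusted p = 0.0114, edgeR), and it overlaps Zdhhc6 on the other strand. The call was lost without aOX40 replicate 2 (adjusted p = 0.0811, edgeR) and without aOX40 replicate 3 (adjusted p = 0.0531, edgeR). Hpgds, the hematopoietic prostaglandin D synthase, stood at 3.40, 1.97 and 1.15 CPM in aOX40, against 34.5, 26.1, 12.4, 11.7 and 3.13 CPM in IgG, so IgG replicate 6 lay within aOX40. It fell by 3.01 on the log2 scale (SE 0.73, adjusted p = 0.0414, edgeR), a call held in 6 of 18 alternative analyses and, with 1 library left out, only without IgG replicate 6. Mast cells are rich in this enzyme, and Kit, the 1 of 9 mast cell and basophil markers measured, was at most 0.250 CPM in aOX40 and 0.744 CPM in IgG. The 5 of 7 eosinophil markers measured summed to 26.5 to 30.5 CPM in aOX40 and 14.0 to 39.2 CPM in IgG. The part of mast cells, eosinophils or other cells in the Hpgds result was not tested. Ltb4r2, the low-affinity leukotriene B receptor, lies 823 bases upstream of Ltb4r1. It stood at 0, 0.269 and 0.524 CPM in aOX40, against 0.390, 0.907, 5.79, 7.58 and 5.38 CPM in IgG (fold change on the log2 scale -3.93, SE 1.03, adjusted p = 0.0428, edgeR), a call held in 6 of 17 alternative analyses and, with 1 library left out, only without IgG replicates 2 or 3.

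The calls are given list by list below, where 5.65% of all genes tested passed in either direction. In arachidonate release 1 of 14 tested rose, with a median log2 fold change of 0.42, and the abundant Pla2g7, a phospholipase that degrades platelet-activating factor, stood at 1299 ± 29.6 in aOX40 and 1183 ± 132 in IgG (mean ± SD in CPM; log2 fold change 0.14, not passing). Lpcat2 and Mboat7, acyltransferases, had log2 fold changes of 0.46 and 0.66 and did not pass. Of 9 prostaglandin and thromboxane synthases 1 fell, with a median of 0.03. In that list Ptges2 stood at 8.38 ± 2.02 in aOX40 and 3.55 ± 1.26 in IgG (mean ± SD in CPM; log2 fold change 1.26, adjusted p = 0.0694, edgeR), and the constitutive synthase Ptges3 at 59.5 ± 9.21 in aOX40 and 58.3 ± 4.21 in IgG (mean ± SD in CPM; log2 fold change 0.03). Of 7 leukotriene synthases and lipoxygenases 0 passed (median 0.07). Its most abundant members had log2 fold changes of 0.07 for Mgst1, -1.26 for Cotl1, a 5-lipoxygenase partner (adjusted p = 0.112, edgeR), and -0.55 for Ggt5.

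Of 3 prostaglandin and thromboxane receptors tested 0 passed; Ptgir, the prostacyclin receptor, stood at 0.740, 2.42 and 14.9 CPM in aOX40 and had a log2 fold change of 1.76, or -0.11 without aOX40 replicate 3. Ptger1 had a log2 fold change of -0.24, or 0.05 with total counts alone. Of 6 leukotriene and lipoxin receptors 1 fell, with a median of -0.56, and Fpr2, a lipoxin and formyl peptide receptor with a near copy in Gm5966, stood at 377 ± 151 in aOX40 and 343 ± 95.7 in IgG (CPM, mean ± SD). Cysltr1 stood at 0.595 ± 0.962 CPM in aOX40, against 1.26 ± 1.10 CPM in IgG, and did not pass. Of 8 genes of breakdown and export 0 passed (median 0.14), with Cyp4f18, which hydroxylates leukotriene B, at 1311 ± 146 in aOX40 and 2035 ± 1006 in IgG (mean ± SD in CPM; log2 fold change -0.63), and log2 fold changes of -0.57 for Cyp4f13 and 1.14 for the exporter Abcc1. Of 16 genes of prostaglandin E and cyclic AMP signalling 0 passed (median 0.18). Pde4b, a cyclic AMP phosphodiesterase, stood at 502 ± 266 in aOX40 and 723 ± 257 in IgG (mean ± SD in CPM; log2 fold change -0.53), and the cyclic AMP responsive Crem at 196 ± 82.1 in aOX40 and 310 ± 97.5 in IgG (mean ± SD in CPM; log2 fold change -0.66). Prkar1a, a regulatory subunit of protein kinase A, had a log2 fold change of -0.01, or 0.29 with total counts alone.

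**Figure D4:**
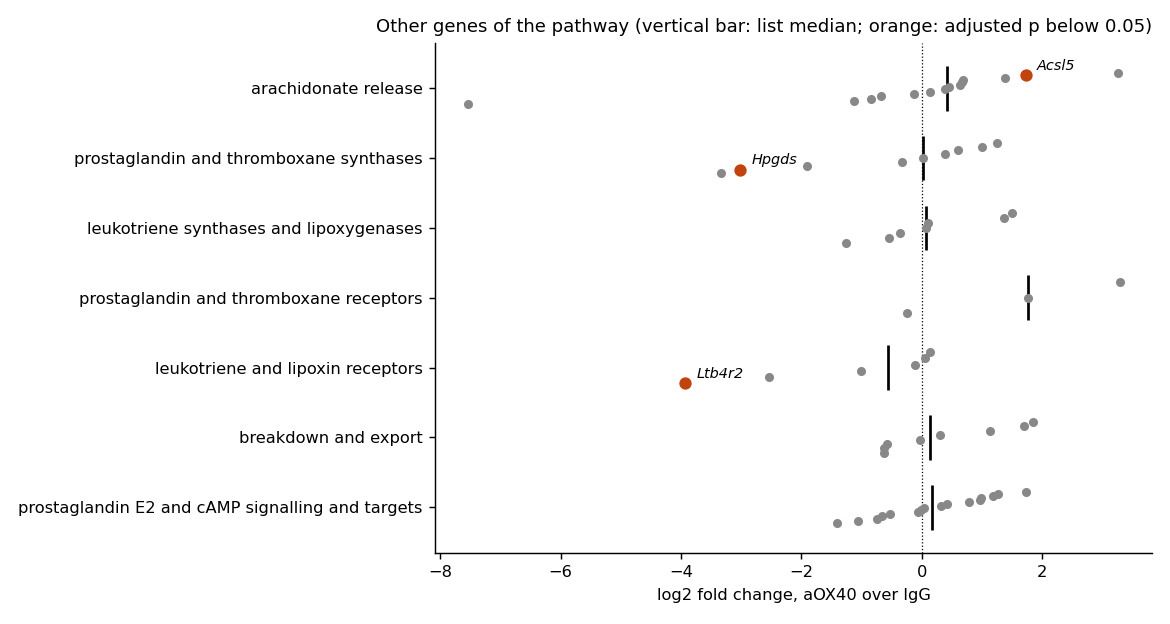
Log2 fold change of aOX40 over IgG for the 63 tested genes of the 7 pathway lists, 1 point a gene, with vertical bars at the list medians and orange for the 3 genes past the threshold. The point at the far left is Pla2g4f, which had 0 counts in every aOX40 library, so that its fitted place is no bound. It also had 0 counts in IgG replicates 2 and 5, was at most 0.791 CPM and did not pass (adjusted p = 0.146, edgeR). Its IgG mean was 9.88 times a floor of 3 counts per library.

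The genes most like Ptgs1 over the 8 libraries, by the root mean square distance between centred log2 CPM profiles among 4935 genes, were Saa3 (distance 1.09), an acute-phase gene, the adenosine receptor gene Adora2b (1.54) and the ectoenzyme gene Cd38 (1.55), against a median distance of 2.79. For Ptges they were Rhof (0.77), a small GTPase gene, Stard5 (0.77), a sterol transfer gene, and the neutrophil chemokine gene Cxcl1 (0.78), against a median of 1.81. The libraries share depth and group, so likeness is a description.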

How the data were processed

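Mouse neutrophil RNA was sequenced in 3 aOX40 and 5 IgG libraries. The authors deposited estimated counts per gene symbol (an expected count need not be whole), made from aligned reads and left unscaled, 18187 rows; 63.4% of values were whole within 0.01. Per the submitters' processing notes, STAR 2.6.0, Subread and featureCounts 1.5.1 were used with build mm10; the sources used here give neither strand nor annotation.

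Counts were rounded, filtered with filterByExpr, scaled with TMM and tested with edgeR 4.0.16 (R 4.3.3), group as the only term, with Benjamini-Hochberg adjustment over 13278 genes. The bias-adjusted quasi-likelihood method was used. The legacy method is the default of glmQLFit in this version and was run first. It was replaced after its calls were seen, because the bias-adjusted method gives the 750 genes of an earlier analysis of these data; it is reported as an alternative. The biological coefficient of variation was 84.7%. Library totals and marker sums were compared with exact two-sided permutation tests. Alternatives were other scalings and filters, DESeq2 1.42.0, limma 3.58.1 voom, a replicate block and each library left out. The procedure was tested on simulated data. There it recovered 7 of 50 genes changed 2-fold and 47 of 50 changed 4-fold, with 14 false calls. A gene that did not pass may thus still differ by 2-fold, or by much more where its libraries vary widely or its counts are low. Ptgds, for one, had a log2 fold change of -3.33 and did not pass (adjusted p = 0.0758, edgeR).

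The members, lists and tests were chosen with earlier results of these data known. Genes named were the 9 members, every pathway gene past the threshold, the 3 most abundant genes of each list and the 3 genes most like each called member; marker genes named, Pla2g4f and those under other observations were chosen after their values were seen. Positions and exonic lengths are from GENCODE M21 (GRCm38), near copies from BLAST+ 2.17.0 and promoters from RefSeq.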

Additional observations from a re-analysis of the deposited data

Results flagged for a closer look

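Ptgdr, a prostaglandin D receptor gene, had 5.29 CPM in IgG replicate 6 and 0 CPM in the other 4 IgG libraries, a sample far from the rest of its group. In aOX40 it stood at 1.71, 0 and 0.0125 CPM, and it did not pass the filter on low counts. The IgG groups of 31 genes were looked at in this way, and chance marks about 1 in 20 groups.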

How the results depend on the processing

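The count of genes past the threshold, 750 over all genes, was 452 without a filter, 1457 with DESeq2, 1305 with voom and quality weights, 320 with the legacy quasi-likelihood method and 0 to 589 with 1 library left out (0 without aOX40 replicate 2, with 2230 genes at an unadjusted p below 0.05; 59 without aOX40 replicate 3; 497 without IgG replicate 3; 475 without IgG replicate 6). Of the calls 46.8% were higher in aOX40, against 78.0% with total counts alone, 34.7% with DESeq2 and 34.1% with the legacy method. Of the 9 genes, 2 passed, against 1 with DESeq2, 0 with the legacy method, and 0 to 2 with 1 library left out. With at least 10 counts in every library only 8 of the 9 were tested, without Ptgs1, and 1 passed. Of the other pathway genes 3 passed, against 6 with total counts alone, 1 without a filter, 8 with DESeq2, 1 with voom, 5 with quality weights, 1 with the legacy method and 0 to 3 with 1 library left out. With the replicate block edgeR called 0 genes over all (2594 at an unadjusted p below 0.05), 0 of the 9 and 0 pathway genes; Ptges then had an adjusted p of 0.238. Only numbers 2 and 3 are shared between the groups, and the deviations of same-numbered libraries correlated at 0.0224 and 0.0469. Differently numbered pairs ran from -0.0442 to 0.0307. With only 2 same-numbered pairs, it cannot be told whether such libraries share more than a number. Directions turned in genes that did not pass. With total counts alone Lta4h was at 0.081, Ltb4r1 at 0.038, Ptger4 at 0.18, Ptger1 at 0.049 and Prkar1a at 0.29. With voom Ptger4 was at 1.20, and with quality weights Ptger4 was at 1.77, Fpr2 at -0.049 and Ptges3 at -0.021. With the replicate block Ptger4 was at 0.92, Cysltr1 at 0.88, Mgst1 at -0.024, Ptger1 at 0.46, Ptges3 at -0.037, Pde4b at 0.025 and Prkar1a at 0.16. Ptges3 was at -0.023 with upper quartile factors, and Prkar1a at 0.017 with at least 10 counts in every library. With 1 library left out Ptger4 ran from -0.49 to 1.28, Fpr2 from -0.24 to 0.30, Mgst1 from -0.10 to 0.28, Ptger1 from -0.74 to 0.093, Ptgir from -0.11 to 2.43, Ptges3 from -0.10 to 0.11 and Prkar1a from -0.15 to 0.093. The cause of these changes was not tested. Voom, quality weights and DESeq2 size factors each left Ptges past the threshold. Counts as low as 3 limit Ptgs1 in IgG.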

Other observations

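Among pathway genes outside the naming rule, chosen after their values were seen, 4 did not overlap between the groups without passing the test. Of all 63 pathway genes tested 8 did not overlap (12.7%; 6 higher and 2 lower in aOX40), a share below that of all genes tested, where 2120 of 13278 did not (8.22% higher and 7.75% lower). Ptgr1, a reductase that inactivates prostaglandins and leukotriene B, stood at 2.41, 5.90 and 2.45 CPM in aOX40, against 0.0205, 0.328, 0.893, 2.40 and 1.12 CPM in IgG (fold change on the log2 scale 1.86, SE 0.67, adjusted p = 0.116, edgeR). Prkaca, a catalytic subunit of protein kinase A, stood at 5.45, 3.75 and 2.62 CPM in aOX40, against 1.35, 2.01, 2.38, 0.734 and 2.23 CPM in IgG (1.18, SE 0.48, adjusted p = 0.158, edgeR). Ptgds, a prostaglandin D synthase, stood at 0.350, 0 and 0.0998 CPM in aOX40, against 1.07, 1.45, 3.52, 0.685 and 0.514 CPM in IgG (-3.33, SE 1.06, adjusted p = 0.0758, edgeR). Acsl1, a fatty acid ligase, stood at 67.9, 76.9 and 56.7 CPM in aOX40, against 246, 163, 141, 92.9 and 91.9 CPM in IgG (-1.13, SE 0.33, adjusted p = 0.0702, edgeR).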
